A study of Mus musculus with 2 samples.

Results

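The miR-23/27/24 microRNAs are encoded by a pair of gene clusters, Mir23a/Mir27a/Mir24-2 and Mir23b/Mir27b/Mir24-1, and their levels were examined in mouse heart. The members were chosen by symbol: the tables' gene IDs were matched to GENCODE M21, and the 6 genes with these names were taken out of 2202 miRNA genes. All 6 were found, each had 10 or more sense counts (reads on the gene's strand) in each library, and all were among the 441 genes tested. Small RNA libraries from total RNA of the heart of male B6CASTF1/J mice, aged 4 days, formed a single group of 2 libraries, called replicates 1 and 2. B6CASTF1/J is the first-generation cross of C57BL/6J with CAST/EiJ, so both libraries hold transcripts of 2 parental genomes. The labels number the animals differently but give them the same donor identifier, so the spread between replicates may be technical if they were not separate animals. No second condition exists, and errors below are SDs over the 2 libraries (n = 2). An exact sign permutation over 2 libraries cannot give a two-sided p below 0.5, so no level or ratio was tested across animals.

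Each hairpin precursor is cut by Drosha and Dicer into a duplex, and one or both arms (5p and 3p) are loaded into Argonaute, where bases 2 to 8, the seed, guide pairing to messenger RNAs. Hairpins of a cluster are transcribed together, and the 2 miR-23/27/24 clusters are paralogs that arose by duplication. In mouse tissues these miRNAs are known from blood vessel endothelium and from striated muscle. miR-23 has been tied to vessel growth and to muscle mass, miR-27 to vessel sprouting and lipid metabolism, and miR-24 to survival of endothelial and cardiac cells.

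The mature arms decide which reads can be placed at a single gene, and they are shown for that reason, 5′ to 3′, with the seed in capitals. RefSeq (GRCm38.p6) gave 11 mature entries for the 6 genes, with 10 different sequences of 21 to 23 bases. miR-23b-3p is named only.
miR-23a-5p: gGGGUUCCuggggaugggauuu
miR-23b-5p: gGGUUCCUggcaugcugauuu
miR-23a-3p: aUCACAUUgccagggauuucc
miR-27a-5p: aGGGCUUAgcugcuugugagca
miR-27b-5p: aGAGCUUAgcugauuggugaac
miR-27a-3p: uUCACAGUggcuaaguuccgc
miR-27b-3p: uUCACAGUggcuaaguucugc
miR-24-2-5p: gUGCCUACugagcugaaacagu
miR-24-1-5p: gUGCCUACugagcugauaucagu
miR-24-3p, from both Mir24-1 and Mir24-2: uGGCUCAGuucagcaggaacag

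The 3p arms of miR-27a and miR-27b have the same seed and differ at a single base, C19U, counted from 1 at the 5′ end with the miR-27a base first. Among 1738 mature entries of the table, the seed of miR-27-3p occurred in no miRNA outside the clusters. The seed of miR-24-3p also occurred in miR-5124b, miR-6369, miR-6410 and miR-6413, whose genes had 0 sense counts in both libraries. The 5p arms of miR-27a and miR-27b have different seeds and differ at 8 of 22 bases. The 5p arms of the Mir24 genes have the same seed and the same first 16 bases, and part after that. miR-24-3p is identical at both loci over all of its 22 bases, so a read of it matches 2 places in the genome.

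The identity reaches beyond the arm, and the 28 bases that the annotated Mir24 hairpins have in common are in capitals.
Mir24-2: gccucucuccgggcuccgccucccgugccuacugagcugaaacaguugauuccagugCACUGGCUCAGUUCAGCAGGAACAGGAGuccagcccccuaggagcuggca
Mir24-1: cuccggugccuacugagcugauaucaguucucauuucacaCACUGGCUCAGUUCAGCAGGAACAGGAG
All of miR-24-3p lies inside the common stretch, which covers bases 58 to 85 of the 107 in Mir24-2 and bases 41 to 68 of the 68 in Mir24-1. It stops where the annotated Mir24-1 hairpin ends. With Mir3074-1, the hairpin annotated opposite Mir24-1, Mir24-2 shared 30 bases, from 58 to 87. A search of all annotated mouse hairpins on both strands found 11 of the 88 windows of 20 bases in Mir24-2, and 9 of the 49 in Mir24-1, at another locus. Mir23a, Mir23b, Mir27a and Mir27b each had a single such window, and for each the longest stretch held by the paralog was 20 bases. With windows of 22 bases these 4 hairpins had 0 matches elsewhere, whereas Mir24-2 and Mir24-1 still had 9 and 7. All 6 members therefore shared at least 1 window of 20 bases, against 93 of the 441 tested genes (21.1%, members included). The members were chosen as paralogs of each other, so this count largely follows from that choice. miR-23a-3p and miR-27a-3p share their first 18 bases with the paralogous hairpin, so a read ending within those bases matches both loci.

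**Figure D1:**
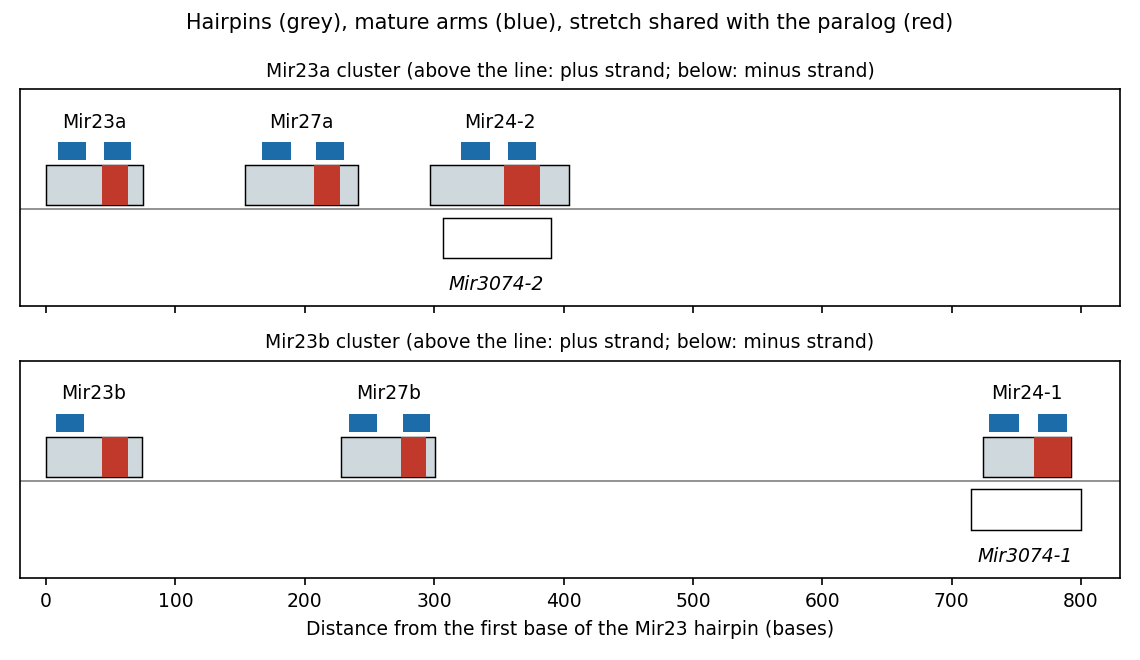
Map of both clusters to scale, in bases from the first base of the Mir23 hairpin. Grey boxes are hairpins, blue boxes the 11 mature arms with a RefSeq entry, red boxes the stretch held by the paralog, and open boxes the Mir3074 hairpins on the minus strand. The red stretch is 20 bases in the Mir23 and Mir27 hairpins and 28 bases in the Mir24 hairpins.

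The Mir23a cluster spans 404 bases of chromosome 8, from 84208518 to 84208921 on the plus strand (mm10). Mir23a (ENSMUSG00000065611.1, 84208518 to 84208592) and Mir27a (ENSMUSG00000065444.1, 84208672 to 84208758) overlap no other annotated gene. Mir24-2 (ENSMUSG00000065541.1, 84208815 to 84208921) ends on the first 2 bases of the long noncoding RNA gene Gm26532 and lies opposite Mir3074-2. The Mir23b cluster spans 792 bases of chromosome 13, from 63300484 to 63301275 on the plus strand, within the protein-coding gene 2010111I01Rik, an aminopeptidase gene. Mir23b (ENSMUSG00000065599.2, 63300484 to 63300557) is intronic in every transcript there. Mir27b (ENSMUSG00000065475.2, 63300712 to 63300784) overlaps an exon of 1 of 9 host transcripts, a nonsense-mediated decay form, and is intronic in the others. Mir24-1 (ENSMUSG00000105904.1, 63301208 to 63301275) overlaps exons of 4 of 11 host transcripts, none with coding sequence at that place, and lies opposite Mir3074-1. The Fanconi anaemia gene Fancc runs across the whole Mir23b cluster on the minus strand. The hairpins are 79 and 56 bases apart in the Mir23a cluster and 154 and 423 bases apart in the Mir23b cluster.

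The libraries held 4196577 and 3801738 sense counts in replicates 1 and 2, which were 43.8% and 40.9% of all reads in the tables. Multi-mapped reads, which are in no gene count, numbered 3657699 and 3929811. As a check of the tissue, the cardiomyocyte list (7 genes) held 1.31% and 0.892% of sense counts with 0 of its genes at 0 counts in both libraries. Mir208a, encoded within a cardiac myosin gene, had 2091 and 1259 CPM (sense counts per 1000000 sense counts of the library), and Mir499 had 5794 and 4633 CPM. The other 5 genes of the list, added after their values were seen, were uneven. Mir208b had 5169 and 2965 CPM, and Mir1a-2, of the muscle miRNA miR-1, had 33.1 and 54.4 CPM. Mir1a-1 had 2.38 and 3.42 CPM, Mir133a-1 had 2.62 and 7.63 CPM, and Mir133a-2 had 1.67 and 1.32 CPM. The placed reads of the list thus rest on Mir208a, Mir208b and Mir499. Reads that match both Mir1a genes or both Mir133a genes are in none of these values. The CPM of these genes may therefore hold only part of their miRNAs. CPM needs no scaling by length here, since a read covers a whole mature miRNA. Intervals are 95% Wilson intervals for shares and exact binomial intervals for ratios of 2 genes; both cover counting error only, since PCR copies are not independent molecules.

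miR-23 made up nearly all of the placed reads of both clusters, miR-27 was far lower and miR-24 was lowest. Mir23b had 168327 sense counts in replicate 1 and 191804 in replicate 2, which were 40111 and 50452 CPM. Mir23a had 137955 and 152255 sense counts, which were 32873 and 40049 CPM. Mir23b was the higher gene in each library, and the ranges did not overlap, although Mir23a in replicate 2 came close to Mir23b in replicate 1. Mir23b ranked sixth and Mir23a seventh by mean CPM among the 2202 genes.

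The miR-27 genes were unequal. Mir27b had 24328 and 14605 sense counts, or 5797 and 3842 CPM, and stood at rank 34 by mean CPM. Mir27a had 3651 and 2541 sense counts, or 870 and 668 CPM, at rank 85. Both were higher in replicate 1, and every value of Mir27b was above every value of Mir27a.

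The miR-24 genes had few placed reads, from hairpins of which both 3p arms are the same. Mir24-2 had 685 and 252 sense counts, or 163 and 66.3 CPM. Mir24-1 had 215 and 285 sense counts, or 51.2 and 75.0 CPM. Their ranges overlapped: Mir24-2 was the higher gene in replicate 1 and Mir24-1 in replicate 2. These counts hold only part of miR-24, because reads of miR-24-3p match both loci and the tables keep multi-mapped reads out of gene counts. The files do not say how many of the multi-mapped reads were miR-24-3p, and they do not separate the arms of any hairpin.

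**Figure D2:**
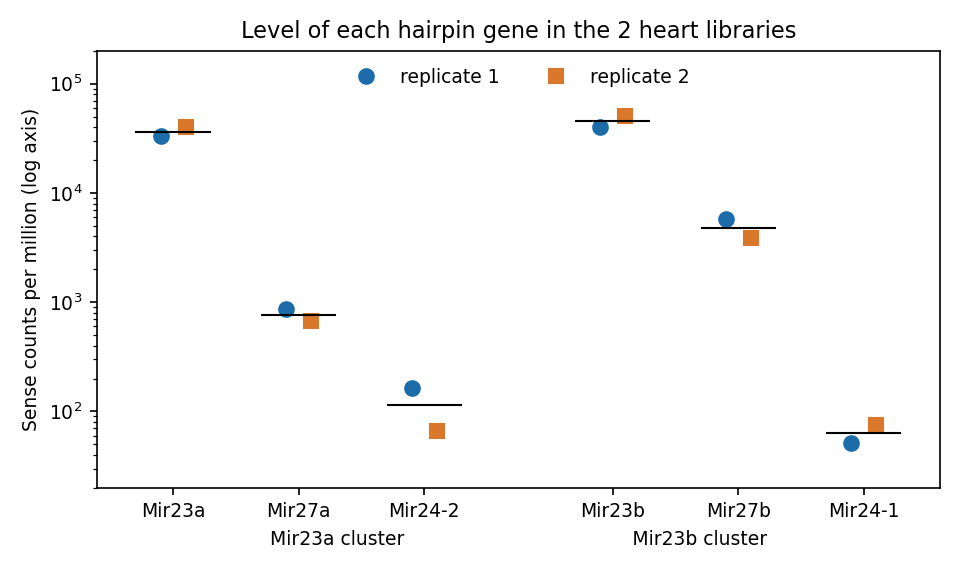
Level of each member in CPM, on a log axis, with a point for each library and a bar at their mean. Mir23a and Mir23b lie between 32873 and 50452 CPM, Mir27b between 3842 and 5797, Mir27a between 668 and 870, and both Mir24 genes between 51.2 and 163.

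The clusters took similar parts of the libraries. Reads of the Mir23a cluster were 3.39% of replicate 1, with a Wilson interval of 3.37 to 3.41, and 4.08% of replicate 2, with 4.06 to 4.10, a mean of 3.73% ± 0.486 (SD, n = 2). The Mir23b cluster held 4.60% (4.58 to 4.62) and 5.44% (5.41 to 5.46), a mean of 5.02% ± 0.595. Of the reads of all 6 genes, 57.5% and 57.1% came from the Mir23b cluster, a split that differed by less than a percentage point between the libraries. By family the mix moved more. The Mir27 pair held 8.35% of the members' reads in replicate 1 and 4.74% in replicate 2, the Mir24 pair 0.269% and 0.148%, and the Mir23 pair 91.4% and 95.1%.

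Ratios of 2 genes in the same library do not depend on the library's scaling. Mir23b exceeded Mir23a by 1.22-fold in replicate 1 (exact interval 1.21 to 1.23) and by 1.26-fold in replicate 2 (1.25 to 1.27), a log2 ratio of 0.31 ± 0.03. Mir27b exceeded Mir27a by 6.66-fold (6.44 to 6.90) in replicate 1 and 5.75-fold (5.51 to 5.997) in replicate 2, and the log2 ratio was 2.63 ± 0.15. For both families the ratio between the clusters was thus above 1 in each library, with the excess larger for miR-27 than for miR-23. An SD of 2 libraries, which may not be separate animals, gives no test of these ratios. The part of capture and of unplaced reads in them was not tested. The ratio of Mir24-1 to Mir24-2 was 0.314 (0.268 to 0.366) in replicate 1 and 1.13 (0.951 to 1.35) in replicate 2. Its log2 value of -0.75 ± 1.31 had a spread larger than itself, since its sign differed between the libraries, so no order of the Mir24 genes can be given.

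For comparison, 9 paralog pairs of other duplicated clusters (the Mir99 and let-7 clusters, the Mir17 and Mir106b clusters, and the Mir15/Mir16 clusters) had a median absolute log2 ratio of 1.61, with a range of 0.29 to 5.15. Their median change between the libraries was 0.34, with a range of 0.01 to 2.38. Mir23b to Mir23a changed by 0.05, Mir27b to Mir27a by 0.21 and Mir24-1 to Mir24-2 by 1.85 between the libraries. The Mir23 pair, at 0.31, thus lay near the low end of the other pairs' log2 ratios. The change of the Mir24 pair was exceeded by 1 of the 9 pairs, Mir17 to Mir106b. The pairs share the same 2 libraries, and Mir99a and Mirlet7c-1 each stand in more than 1 of the 9 pairs. Reads that match more than 1 locus are in none of these ratios, so a pair's ratio may leave out part of its miRNAs. The difference between the sets was not tested.

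Within each cluster and library, the Mir23 gene had the most placed reads, the Mir27 gene fewer and the Mir24 gene the fewest. The order of the mature miRNAs was not tested, because reads that match both Mir24 loci are in none of these counts. Mir23a exceeded Mir27a by 37.8-fold in replicate 1 (36.6 to 39.1) and by 59.9-fold in replicate 2 (57.6 to 62.3). Mir23b exceeded Mir27b by 6.92-fold (6.83 to 7.01) and 13.1-fold (12.9 to 13.4). The excess of miR-23 over miR-27 was larger in replicate 2 in both clusters, by 0.67 on the log2 scale in the Mir23a cluster and by 0.92 in the Mir23b cluster, with intervals that did not overlap. In both libraries the excess was larger in the Mir23a cluster.

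Against miR-24, Mir23a exceeded Mir24-2 by 201-fold (187 to 217) and 604-fold (534 to 686). Mir23b exceeded Mir24-1 by 783-fold (685 to 899) and 673-fold (599 to 759), and these intervals overlap. Mir27a exceeded Mir24-2 by 5.33-fold (4.91 to 5.79) and 10.1-fold (8.86 to 11.5). Mir27b exceeded Mir24-1 by 113-fold (98.9 to 130) and 51.2-fold (45.6 to 57.8). The miR-27 excess over miR-24 thus moved up in replicate 2 in the Mir23a cluster and down in the Mir23b cluster. Reads of miR-24-3p that match both loci are in none of these ratios. Capture and amplification also differ between miRNA sequences, and their part in these ratios was not tested.

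**Figure D3:**
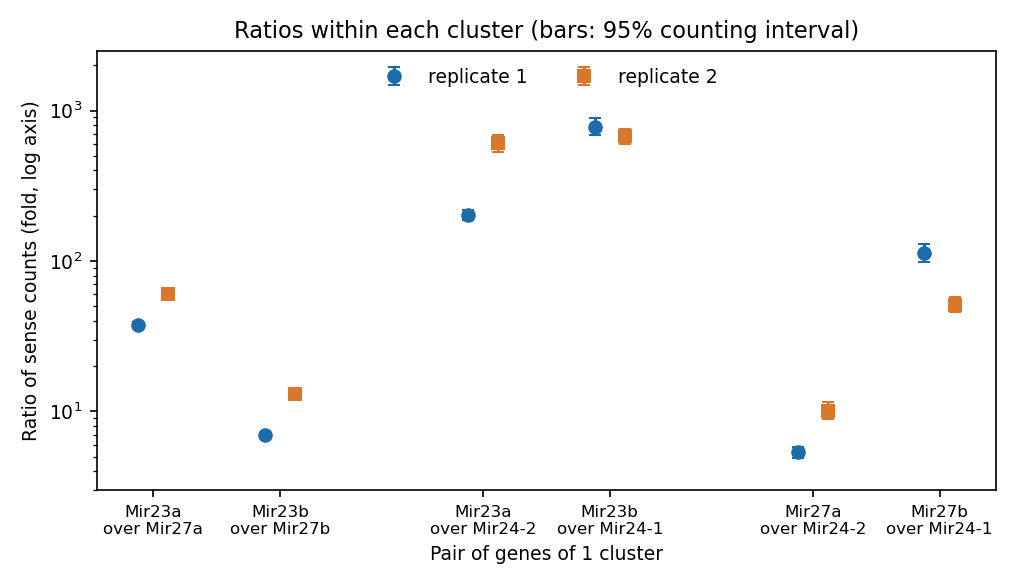
Ratio of sense counts of 2 genes of the same cluster in each library, on a log axis, with 95% exact binomial intervals as bars. Mir23 over Mir27 is higher in replicate 2 in both clusters (37.8 and 59.9, then 6.92 and 13.1), while the ratios to Mir24 move in different directions.

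The range within the clusters was wide beside that of other clusters of their size, which were not matched for level. Among annotated miRNA genes, 16 groups of 3 or more on 1 strand with neighbours within 10 kb had a member with at least 100 counts. The difference between the highest and the lowest member in log2(CPM + 1) was 9.48 ± 0.15 in the Mir23b cluster and 8.43 ± 1.11 in the Mir23a cluster, at ranks 5 and 7 of 16. The other 6 groups of exactly 3 genes had a median of 4.05 and a range of 1.40 to 6.57, below both. A difference cannot exceed the highest gene's own log2(CPM + 1), so groups with low top genes could not reach the members' values. In the Mir449c to Mir449a group the lowest gene had 0 CPM. Its differences of 5.35 and 4.53 in replicates 1 and 2 were therefore the largest possible at its level. In both clusters the lowest gene, Mir24-1 or Mir24-2, shared 20-base windows with another locus, as did the lowest gene in 1 of those 6 groups, Mirlet7f-1 of the Mirlet7d cluster, which had the widest difference of the 6. The part of unplaced reads in these differences was not tested.

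**Figure D4:**
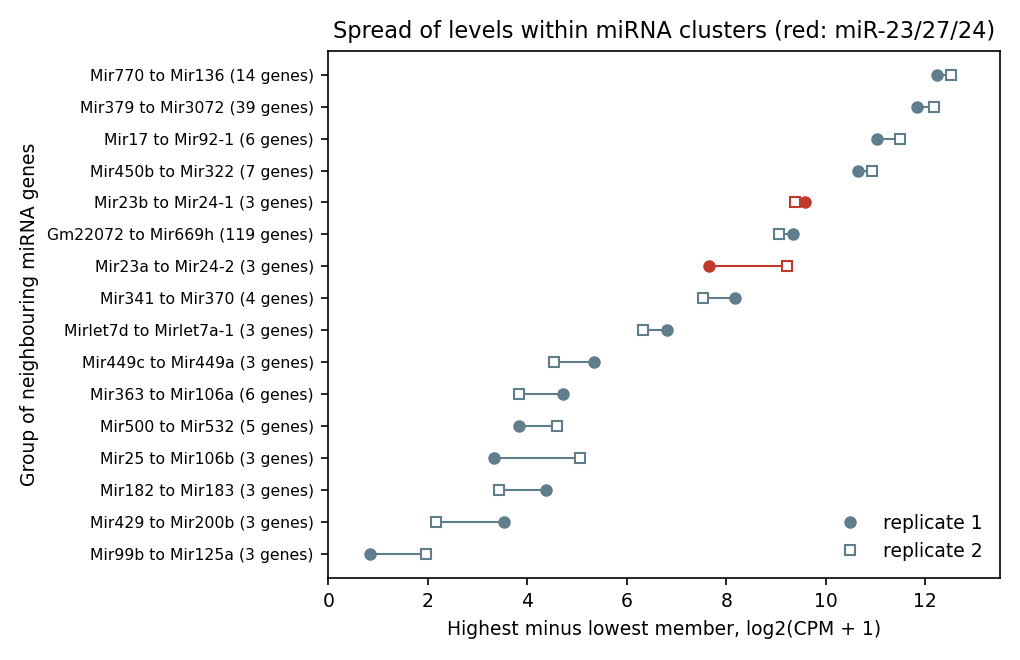
Difference between the highest and the lowest member, in log2(CPM + 1), of 16 groups of neighbouring miRNA genes, with filled circles for replicate 1 and open squares for replicate 2. The miR-23/27/24 clusters (red) average 9.48 and 8.43, above the other groups of 3 genes, which average 6.57 or less and were not matched for level.

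Between the libraries, the members split by family for miR-23 and miR-27. The miR-23 genes were higher in replicate 2, with log2 ratios (replicate 2 over replicate 1, of CPM + 1) of 0.28 for Mir23a and 0.33 for Mir23b. The miR-27 genes were lower there, with -0.38 for Mir27a and -0.59 for Mir27b. The Mir24 genes went apart, with -1.29 for Mir24-2 and 0.54 for Mir24-1. Each pair's direction was thus the same in both clusters for miR-23 and miR-27 and opposite for miR-24.

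A two-sided Fisher's exact test of each gene against the rest of its library, with Benjamini-Hochberg adjustment over the 441 tested genes, compares these 2 libraries and not conditions. It called all 6 members at an adjusted p under 0.05, but it also called 251 of all tested genes (56.9%), so this count says little about the members. Of the 6, 3 were higher in replicate 2, where 20.4% of tested genes were called higher, and 3 were lower, where 36.5% were. The largest of the members' adjusted p-values by Fisher's exact test was 5.96e-05, for Mir24-1, followed by 4.20e-24 for Mir27a. That test takes counting error as the only error, so its p-values leave out any other spread between libraries. The median log2 ratio was -0.05 over the members and -0.26 over all tested genes. TMM scaling (trimmed mean of M-values) raised the members' ratios by 0.24 and DESeq2 size factors by 0.31, and the median over all tested genes moved to -0.06 and 0.00. All genes called then split into 124 higher and 116 lower with TMM, or 136 and 104 with DESeq2 scaling, in place of 90 and 161. All 6 members kept their direction under both, but Mir27a had a log2 ratio of only -0.07 with DESeq2 scaling and was no longer called (adjusted p = 0.119 by Fisher's exact test).

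Measured against the spread among miRNAs, the members were not far out. Of 243 genes whose mean count reached 100, 96 lay farther than Mir23a from the median ratio of all tested genes, 91 farther than Mir23b, 153 farther than Mir27b and 203 farther than Mir27a. Mir24-2 and Mir24-1 were nearer the edge, with 38 and 56 genes farther. Mir24-2 was the only member that differed by more than 2-fold, as 41 of the 243 genes did (16.9%). edgeR's exact test with a spread estimated from the same libraries (biological coefficient of variation 0.379) called 0 of 6 members, with unadjusted p-values from 0.189 for Mir24-2 to 0.864 for Mir27a by that exact test. It called 2 of 441 genes, Mir26a-1 and Mir9-3, and 25 had an unadjusted p under 0.05. That spread came from the difference between the same 2 libraries that were then compared, so a gene with a typical difference could hardly be called. The exact test of edgeR therefore cannot show whether the members differed. A p above the threshold does not show that the members were equal in the libraries.

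**Figure D5:**
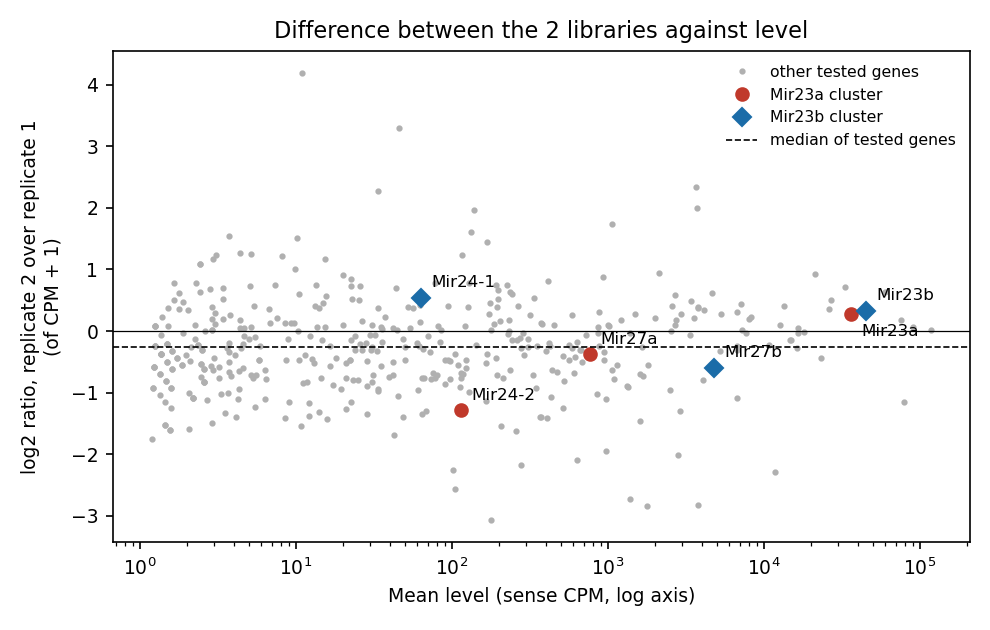
Log2 ratio of replicate 2 over replicate 1 (of CPM + 1) against mean CPM on a log axis for the 441 tested genes, with the Mir23a cluster as red circles and the Mir23b cluster as blue diamonds. Mir23a and Mir23b lie at 0.28 and 0.33, Mir27a and Mir27b below 0, and the Mir24 genes on opposite sides of the dashed median at -0.26.

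By level, Mir23a and Mir23b were next to each other, and the other neighbours of the members belonged to other loci. Mir143, a smooth muscle miRNA, stood just above Mir23b at 60273 ± 18664 CPM, and Mir335 just below Mir23a at 33265 ± 11368 CPM, beside 45281 ± 7312 for Mir23b and 36461 ± 5074 for Mir23a. Mir27b, at 4819 ± 1383 CPM, stood between the heart miRNA Mir499 at 5214 ± 821 and Mir107 at 4631 ± 1384. Mir27a, at 769 ± 143 CPM, stood between Mir1839 at 849 ± 409 and Mir130b at 727 ± 24.9. Mir24-2, at 115 ± 68.5 CPM, stood between Mir345 at 115 ± 37.9 and Mir598 at 115 ± 42.4. Mir24-1, at 63.1 ± 16.8 CPM, stood between Mir673 at 63.9 ± 23.8 and Mir338 at 62.8 ± 4.56. Each of these outside genes differed from its member in mean CPM by less than the larger of both SDs. They were picked as the nearest in level, so small differences follow from that choice. Mir23b and Mir23a differed by more than either SD (n = 2).

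The genes with a log2 ratio between the libraries closest to each member's, among those whose mean count reached 100, rest on 2 values each. They were Mir181b-2 and Mir487b for Mir23a, Mir379 and Mir93 for Mir23b, Mir329 and Mirlet7a-2 for Mir27a, and Mir1843a and Mir1930 for Mir27b. For Mir24-2 they were Mir505 and Mir298, and for Mir24-1 Mir221 and Mir224. Their ratios were within 0.03 of the member's, which follows from picking them as the closest.

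Marker miRNAs of the cell types in the heart did not move in 1 direction between the libraries. Of the endothelial list, 4 of 6 tested genes were called higher and 1 lower in replicate 2, with a median log2 ratio of 0.70, while its most abundant gene Mir126a had -1.15 and the list's share fell from 11.2% to 5.54% of sense counts. Both tested smooth muscle and pericyte genes were higher (median 1.32), with the list at 4.86% and 7.95%. The cardiomyocyte list had 2 of 7 higher and 3 lower (median -0.20), the fibroblast list 1 of 8 and 4 (median -0.67), with Mir199a-1 at 0 counts, and the blood list 3 of 7 and 3 (median 0.00). These stand beside the members' 3 of 6 higher and 3 lower. Over all tested genes 20.4% were called higher and 36.5% lower, so these counts say little about the cell types. Reads that match more than 1 gene are in none of the lists' values. The part of the cell types in the members' differences was not tested, and in bulk tissue fewer cells of a type and less RNA per cell cannot be told apart.

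On the opposite strand, the Mir3074 hairpins cover the Mir24 loci. Mir3074-1 had 75 and 57 sense counts in replicates 1 and 2, or 17.9 and 15.0 CPM, below the 51.2 and 75.0 CPM of Mir24-1 on the other strand. Mir3074-2 had 2 and 0 sense counts, where 3 counts correspond to 0.715 and 0.789 CPM. The opposite-strand signal was thus seen in both libraries at the Mir24-1 locus and was at or under the limit of 3 counts at the Mir24-2 locus. With strand ignored, both Mir24 genes and both Mir3074 genes had 0 counts, and the tables' line for ambiguous reads held 11.4% and 8.25% of reads, against 0 with strand. The counts of the Mir23 and Mir27 genes were identical with and without strand.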

How the data were processed

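MicroRNA sequencing was done on 2 heart libraries. The authors deposited raw read counts per miRNA gene, without regard to strand, on the gene's strand and on the opposite strand, with mm10 and GENCODE M21 named per the description files deposited with them. The aligner is not given in the sources used here. The tables' summary lines (reads unmapped, in several places, outside genes or ambiguous) stayed out of library sizes, so gene counts on the sense strand were 43.8% and 40.9% of reads. Loss of CAST allele reads was not tested.

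Genes with 10 or more sense counts over both libraries were tested by Fisher's exact test (SciPy 1.17.1) with Benjamini-Hochberg adjustment at 0.05, after a test on simulated data. The simulated counts held set changes and counting error only, so they do not show how the test behaves with the spread of these libraries. edgeR 4.0.16 gave TMM scaling and an exact test across all genes, and DESeq2 1.42.0 gave size factors. The quasi-likelihood fit of edgeR cannot be made with 1 library a side. Log2 ratios between libraries use CPM + 1; ratios of 2 genes use counts as deposited. Sequences are from RefSeq (GRCm38.p6, the coordinates of mm10), and hairpins were searched in GENCODE M21 transcripts, not in the genome, so copies outside annotated hairpins were not seen.

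Named genes were the members, hairpins opposite to them, the next gene above and below each in mean CPM, the 2 closest in ratio, genes with the same seed and the marker lists. The members and lists were chosen with earlier results of these data known. Alternatives were scaling, denominator, strand, pseudocount, count minimum, test and leaving out a replicate.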

Additional observations from a re-analysis of the deposited data

Results flagged for a closer look

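Reads on the strand opposite to Mir24-1 lie outside the sense counts of the members and were above the limit of 3 counts in each library, with 75 in replicate 1 and 57 in replicate 2. They equal the sense counts of Mir3074-1, the hairpin annotated there. The other 5 members had at most 2 such reads in a library.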

How the results depend on the processing

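With all reads as the denominator, the Mir23a cluster, the Mir23b cluster and both together held 1.58%, 2.12% and 3.69% of reads, and without regard to strand 4.83%, 6.51% and 11.3% of gene counts, since ambiguous reads leave that total. Without replicate 1 or 2, these shares ranged from 3.39% to 4.08%, 4.60% to 5.44% and 7.99% to 9.52%. Each value without a replicate is only that of the single library left. The log2 ratio of Mir24-1 to Mir24-2 was 0.18 without replicate 1 and -1.67 without replicate 2; the cause was not tested. Those ranges were 0.29 to 0.33 for Mir23b to Mir23a, 2.52 to 2.74 for Mir27b to Mir27a, 5.24 to 5.90 for Mir23a to Mir27a and 2.79 to 3.72 for Mir23b to Mir27b. They were 7.65 to 9.24 for Mir23a to Mir24-2, 9.39 to 9.61 for Mir23b to Mir24-1, 2.41 to 3.33 for Mir27a to Mir24-2 and 5.68 to 6.82 for Mir27b to Mir24-1. Of the alternative values of single genes, 11 CPM values moved by more than the SD over the libraries, all with the denominator or strand. The SD of Mir24-2 is wide: its mean of 115 CPM became 49.3 with all reads as denominator and 66.3 without replicate 1. The log2 ratio of Mir27a became -0.14 with TMM scaling. In all, 7 calls were lost: Mir27a with DESeq2 scaling and all 6 members with edgeR's exact test. Since edgeR's exact test took its spread from the difference it tested, the calls lost with it do not show that those members were equal. Adding 0.5 counts moved no ratio by as much as its SD. The number of genes called was 240 with TMM scaling, 240 with DESeq2 size factors, 237 without regard to strand and 238 with no count minimum, and 2 with edgeR's exact test. Without regard to strand, ratios to a Mir24 gene gave no value, since those genes had 0 counts, and leaving out a library leaves no comparison between libraries. No paired analysis was possible because the labels give 1 group. Depth limits the Mir24 genes most: 215 to 685 sense counts carry their values.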
